A study of Homo sapiens with 18 samples.

Results

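HK-2 cells, which derive from human kidney proximal tubule epithelium and are immortalized, were compared between 48 and 24 h of exposure to a vehicle alone. The comparison took 6 of the 18 arrays of the series: the 3 vehicle cultures of 48 h against the 3 vehicle cultures of 24 h, paired by the biological replicate number of their labels. The other arrays held vehicle cultures of 12 h and cultures given CsA, the usual abbreviation of cyclosporin A, for 12, 24 or 48 h, with 3 replicates in each group. All cells had been plated 24 h before treatment, were near 90% confluent when treatment began, and had 2 ml of medium per well, so the 48 h cultures were also older since plating than the 24 h cultures, and hours of vehicle and hours since plating cannot be told apart. The medium, shared by all groups, was a mixture of DMEM and Ham's F12 with 5 mM glucose, 10 ng/ml EGF, 36 ng/ml hydrocortisone and 5 µg/ml insulin, and no serum is named for it. Which substance the vehicle was, the CsA dose and whether medium was renewed are not given in the sources used here. The line is immortalized, and the labels call the replicates biological without saying what separated them, so p-values measure the spread between these arrays only.

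Arrays measured RNA by hybridization, and values were GCRMA log2 levels, on which a difference of 1 equals a 2-fold difference in signal. Each of 10717 genes was represented by its brightest probe set and had to reach a mean of 4 in at least 1 of the 6 groups of the series. Of these genes, 131 reached 4 in vehicle cultures at 48 h only, 82 at 24 h only and 150 at neither time. Differences are 48 h minus 24 h, with the standard error of a limma fit over all 18 arrays that held the replicate number as a block, and adjusted p-values are those of this fit after Benjamini-Hochberg adjustment over all 10717 genes. "Rose" and "fell" are used of genes with an adjusted p under 0.05. Values of single arrays are given in the order of replicates 1, 2 and 3.

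Replicate 3 stood apart from the others at both times. The SD over genes of the log2 difference between 2 arrays of 48 h was 0.49 for replicates 1 and 2, 0.74 for 1 and 3 and 0.63 for 2 and 3, and that between 2 arrays of 24 h was 0.26, 0.75 and 0.80 for the same pairs. Of the variance of the 6 arrays over the genes tested, 37.0% lay between the times and 42.7% between replicate 3 and the others. Array medians lay between 2.87 and 2.92. The difference between the 3-prime and 5-prime control probe sets, a measure of RNA integrity, changed by 0.10 for ACTB (exact permutation test, two-sided, p = 0.7) and by 0.01 for GAPDH (p = 1), where 3 arrays against 3 cannot go below 0.1. Among markers of proximal tubule epithelium 5 of the 10 on the array reached 4 in vehicle cultures (DPP4, CDH6, PAX8, KRT8 and KRT18), while the brush border and transport genes LRP2, CUBN, AQP1, ANPEP and GGT1 were below 4. The mean level of this list was 6.87 to 7.02 at 48 h, against 7.06 to 7.26 at 24 h. Fibroblast markers reached 4 for 4 of 8 (COL1A1, COL3A1, DCN and LUM), with list means of 5.01 to 5.44 at 48 h, against 5.35 to 5.65 at 24 h. None of 7 endothelial and none of 5 leukocyte markers reached 4. Of 4 podocyte markers PODXL and SYNPO reached 4, and of 7 distal nephron markers SCNN1A, a subunit of the epithelial sodium channel, did, with means of 8.82 at 48 h and 8.21 at 24 h. None of these 3 passed the test, and both lists had list means between 3.18 and 3.91 at both times.

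Between 24 and 48 h of vehicle, 1779 genes rose and 1710 fell. These were 16.6% and 16.0% of the 10717 genes tested, together 32.6%, and 4563 genes had an unadjusted p under 0.05. All 3 pairs of arrays moved one way for 3387 of the 3489 called genes and for 5492 of the 10717 genes tested. The fit with the block favours genes whose pairs agree, so the first count is no independent check. The 3 arrays of 48 h lay above all 3 of 24 h for 1271 of the genes that rose. They lay below them for 1325 of those that fell. Over all genes such separation was met in 14.9% upward and 16.1% downward. Counts of list members below are to be read against these shares of all genes. A log2 difference of at least 1 was reached by 414 rises and 324 falls, of at least 2 by 55 and 20, and of at least 3 by 16 and 1. The count depended on the block: without it 785 genes rose and 767 fell (7.32% and 7.16%), and every one of these 1552 was also called with it. The 6 arrays fitted alone, with the block, gave 334 rises and 279 falls (3.12% and 2.60%). Fits without all arrays of replicate 1, 2 or 3 called 2054, 2228 and 2366 genes. The median difference over all genes was 0.00.

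The genes that rose include those of known stress programs. In the unfolded protein response, sensors in the membrane of the endoplasmic reticulum (ER) that include IRE1 and ATF6 detect unfolded protein and switch on genes for chaperones and for the removal of misfolded protein. In the integrated stress response, kinases that sense ER stress, lack of amino acids and other conditions phosphorylate a translation initiation factor, which slows translation but favours that of the transcription factor ATF4, whose targets import and make amino acids, charge tRNAs and encode further regulators such as DDIT3 (CHOP). Both programs are known to be active in injured renal tubules.

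Promoters of HSPA5, HERPUD1, ASNS and CHAC1 are shown here as examples, chosen because their windows hold the elements for which these factors are known and not for the size of their change. Each is the RefSeq window of 300 bases around a start site on GRCh38.p14 (250 before and 50 after it), given on the gene's own strand from its upstream end, and capitals mark the element. HSPA5, for the chaperone BiP, lies on the minus strand at chr9:125241294-125241593 and holds an ER stress element (ERSE, CCAAT and CCACG with 9 bases of any kind between them) 66 bases before the start. HERPUD1, for a membrane protein of ER-associated degradation, lies on the plus strand at chr16:56931892-56932191 and holds the shorter element ERSE-II (ATTGG and CCACG with 1 base of any kind between them) 117 bases before it. ASNS, asparagine synthetase, lies on the minus strand at chr7:97872359-97872658 with the C/EBP-ATF response element searched as TGATGNAA 68 bases before it. CHAC1, for an enzyme that degrades glutathione, lies on the plus strand at chr15:40953221-40953520 and holds that element on the opposite strand, 209 bases before its start.
HSPA5: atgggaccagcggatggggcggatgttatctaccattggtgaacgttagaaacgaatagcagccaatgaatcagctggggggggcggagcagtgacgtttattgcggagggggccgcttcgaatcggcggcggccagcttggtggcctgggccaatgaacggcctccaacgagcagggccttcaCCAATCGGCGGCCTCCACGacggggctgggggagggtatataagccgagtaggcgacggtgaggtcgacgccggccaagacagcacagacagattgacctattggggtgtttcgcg
HERPUD1: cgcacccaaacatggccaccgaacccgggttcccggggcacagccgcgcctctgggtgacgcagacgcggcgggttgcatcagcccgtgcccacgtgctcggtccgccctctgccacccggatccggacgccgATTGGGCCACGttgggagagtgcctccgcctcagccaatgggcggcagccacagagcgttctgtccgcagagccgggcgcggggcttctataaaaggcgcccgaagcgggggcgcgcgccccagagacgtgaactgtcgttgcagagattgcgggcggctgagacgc
ASNS: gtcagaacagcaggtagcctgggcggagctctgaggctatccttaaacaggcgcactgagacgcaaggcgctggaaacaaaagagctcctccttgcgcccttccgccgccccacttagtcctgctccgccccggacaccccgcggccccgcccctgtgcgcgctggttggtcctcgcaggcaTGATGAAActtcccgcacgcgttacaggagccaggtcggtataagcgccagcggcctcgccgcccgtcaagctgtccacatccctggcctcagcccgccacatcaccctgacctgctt
CHAC1: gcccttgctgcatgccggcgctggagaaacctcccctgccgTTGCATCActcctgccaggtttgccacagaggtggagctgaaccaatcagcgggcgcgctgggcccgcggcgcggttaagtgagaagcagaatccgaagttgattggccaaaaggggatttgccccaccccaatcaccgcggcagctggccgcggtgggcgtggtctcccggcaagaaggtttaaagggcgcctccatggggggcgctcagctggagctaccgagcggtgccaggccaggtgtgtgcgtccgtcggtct
The genes shown were chosen after their values were seen. A match says only that these letters are in the window.

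ER chaperones and genes of ER-associated degradation rose at 48 h. Of 24 list members tested, 19 rose and none fell, against 16.6% and 16.0% of all genes, and the median difference was 1.49, against 0.00 over all genes. For 18 of the 24 all arrays of 48 h lay above all arrays of 24 h, against 14.9% of all genes. HSPA5, the main chaperone of the ER lumen, had levels of 14.69, 15.12 and 15.26 at 48 h, against 12.40, 12.38 and 12.37 at 24 h. Its 48 h arrays stood well above the closely spaced 24 h arrays, and the difference was 2.64 ± 0.19 (adjusted p = 4.65e-06). These levels are from the brighter of its 2 probe sets and at 48 h came near those of GAPDH (15.46, 15.52 and 15.51). By the other probe set, the more variable one, the difference was 5.33, and by the mean of both 3.99, so its size depends on the probe set, and the part of brightness in this was not tested. HERPUD1 had 13.04, 13.59 and 13.75 at 48 h, against 10.23, 10.51 and 9.83 at 24 h, a difference of 3.27 ± 0.22 (adjusted p = 3.23e-06), or 2.10 by the mean of its probe sets. DNAJB9, an ER co-chaperone that binds IRE1, had 11.35, 12.36 and 12.35 at 48 h, against 8.79, 9.12 and 8.45 at 24 h, and rose by 3.23 ± 0.22 (adjusted p = 3.23e-06). For both genes, as for HSPA5, replicate 1 was the lowest of the 48 h arrays and the groups did not overlap.

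Replicate 1 gave the smaller change across this list. The median of the members' paired differences was 0.66 in replicate 1, 1.83 in replicate 2 and 1.76 in replicate 3. SDF2L1, a lumenal chaperone partner, had 9.10, 10.73 and 10.87 at 48 h, against 6.10, 6.10 and 7.30 at 24 h, with the arrays of replicates 2 and 3 highest, and rose by 3.73 ± 0.34. DNAJC3, a co-chaperone that inhibits the kinase PERK, rose by 2.56 ± 0.23, the secreted ER protein MANF by 2.50 ± 0.25, and CRELD2, a calcium-binding ER protein, by 2.66 ± 0.40. HYOU1, a large ER chaperone, rose by 2.56 ± 0.35 and SEL1L, the scaffold of the HRD1 ubiquitin ligase, by 2.22 ± 0.25. XBP1, for the transcription factor whose mRNA is spliced by IRE1, had 10.57, 10.74 and 10.38 at 48 h, against 8.55, 8.81 and 8.67 at 24 h, without overlap, and rose by 1.89 ± 0.17, but its only other probe set had the opposite sign. These arrays do not tell the spliced XBP1 mRNA from the unspliced one.

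The disulfide isomerases PDIA4 (1.98 ± 0.33), PDIA6 (0.83 ± 0.12) and PDIA3 (0.83 ± 0.22) rose, as did the lectin chaperone CANX (0.67 ± 0.15) and HSP90B1 (1.29 ± 0.27), the ER member of the HSP90 family. DNAJB11 (1.68 ± 0.23), EDEM1 (1.21 ± 0.23), which takes misfolded glycoproteins to degradation, DERL2 (0.87 ± 0.19) and SSR1 (0.64 ± 0.13) also rose. CALR, the soluble partner of CANX, did not pass: it had 9.46, 11.09 and 10.08 at 48 h, against 10.00, 9.98 and 9.64 at 24 h, so that replicate 1 lay below its 24 h array and the groups overlapped. P4HB (0.22 ± 0.17), SEC61B (0.31 ± 0.15), DERL1 (0.09 ± 0.18) and the oxidase ERO1A (-0.01 ± 0.13) did not pass either. Without the replicate block 19 members rose, and without all arrays of replicate 1, 2 or 3 the counts were 19, 13 and 15, and with the 6 arrays of 48 and 24 h alone and the block it was 11. The ERSE letters stood in the windows of 7 of the 22 members that had one (31.8%), HSPA5, HSP90B1, CALR, CANX, PDIA6, CRELD2 and XBP1, against 0.169% of tested genes with a window and 0.0916% of all 27305 genes in the table. Some genes have several windows, 1 for each start site, and a gene counts once if any of them holds the letters. ERSE-II stood in 3 of 22 (13.6%), HYOU1, SDF2L1 and HERPUD1, against 0.158% of tested genes and 0.0696% of all. Among genes with a window, 0.746% of those that rose held ERSE (11 genes) and 0.203% ERSE-II (3 genes). Of those that fell, 0% held ERSE and 0.141% ERSE-II (2 genes). The 3 genes that rose with ERSE-II were the 3 list members just named. HSPA5, HSP90B1, CANX, PDIA6, CRELD2 and XBP1 of the list were among the 11 with ERSE. The list was chosen by known function, so neither its shares nor those of the genes that rose test what moved the genes. Both strands were searched, no match overlapped one of another motif, and CALR, which holds ERSE, was among the members that did not pass.

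**Figure D1:**
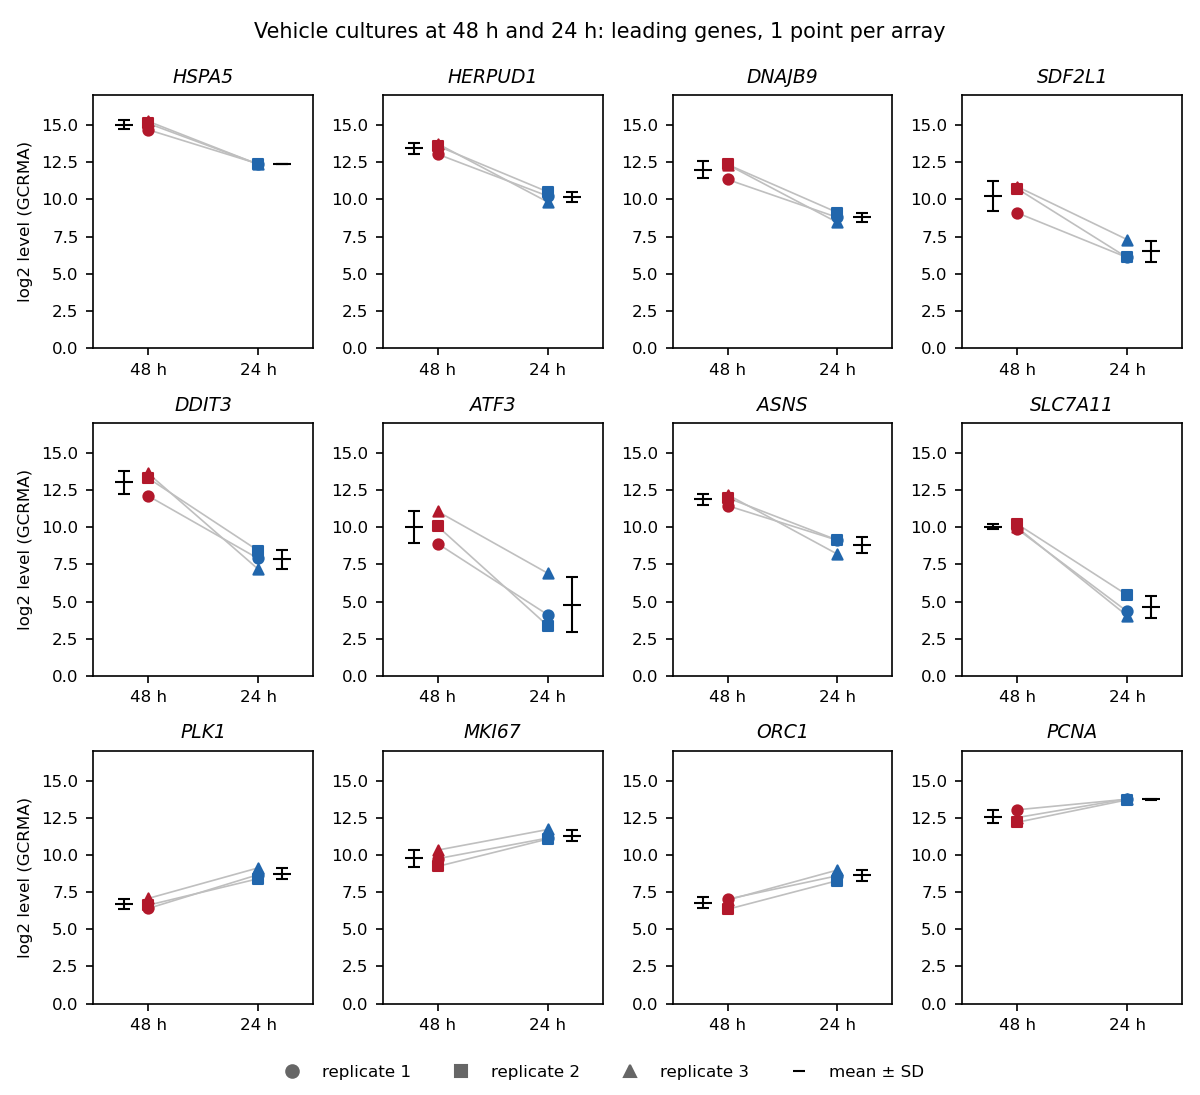
Log2 level of 12 genes in each vehicle array at 48 h (red) and 24 h (blue); lines join arrays of 1 replicate number and bars give mean ± SD. The 8 genes of the upper rows lie higher at 48 h on every array and the 4 genes of the lowest row lie lower, as HSPA5 at 14.69 to 15.26 against 12.37 to 12.40 and PLK1 at 6.40 to 7.08 against 8.40 to 9.13.

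Targets of ATF4 rose as a group as well. Of 29 members tested, 27 rose and none fell, against 16.6% and 16.0% of all genes, with a median difference of 1.79. In 26 of the 29 all 48 h arrays lay above all 24 h arrays, against 14.9% of all genes. ATF4 itself had 12.91, 13.58 and 13.21 at 48 h, against 12.04, 12.12 and 11.79 at 24 h, a rise of 1.25 ± 0.14 (adjusted p = 7.93e-05). DDIT3, the transcription factor CHOP, had 12.11, 13.31 and 13.62 at 48 h, against 7.90, 8.43 and 7.19 at 24 h. Replicate 3 had both the lowest 24 h level and the highest 48 h level, and the rise of 5.17 ± 0.48 (adjusted p = 1.97e-05) was among the largest of all genes. TRIB3, a pseudokinase that binds ATF4 and CHOP, had 12.72, 12.99 and 13.16 at 48 h, against 11.17, 11.31 and 10.42 at 24 h, and rose by 1.99 ± 0.25. ATF3 (5.20 ± 0.64), a stress-induced transcription factor, and CEBPG (1.80 ± 0.18), a dimerization partner of ATF4, rose too. CEBPB had 12.56, 13.16 and 13.78 at 48 h, against 11.47, 11.67 and 13.21 at 24 h, where the 24 h array of replicate 3 lay above the 48 h arrays of the others. Its rise of 1.05 ± 0.24 was lost without the replicate block (adjusted p = 0.290).

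Amino acid transporters and synthetic enzymes made up much of the group. SLC7A11, the cystine transporter, had 9.89, 10.22 and 9.99 at 48 h, against 4.34, 5.45 and 4.05 at 24 h, and its difference of 5.42 ± 0.41 (adjusted p = 6.51e-06) was the largest of all rises. The 24 h levels were close to the level minimum of 4, where the array resolves differences poorly, so its size is uncertain. SLC3A2, the common heavy chain of SLC7A11 and SLC7A5, had 10.27, 10.98 and 11.24 at 48 h, against 8.23, 7.87 and 8.01 at 24 h, and rose by 2.79 ± 0.29, and the light chain SLC7A5 rose by 2.75 ± 0.55. The arginine and lysine carrier SLC7A1 (1.27 ± 0.19) and the glutamine carrier SLC1A5 (0.81 ± 0.18) rose too, the second of them not without the block (adjusted p = 0.0574). ASNS, whose promoter is printed above, had 11.45, 11.98 and 12.19 at 48 h, against 9.12, 9.13 and 8.19 at 24 h, with replicate 3 lowest at 24 h and highest at 48 h, and rose by 3.06 ± 0.48 (adjusted p = 0.000519). CTH, which makes cysteine by transsulfuration, rose by 3.28 ± 0.43.

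Enzymes of serine and one-carbon metabolism moved unequally. The mitochondrial enzymes ALDH1L2 (3.93 ± 0.45), MTHFD2 (1.56 ± 0.21) and SHMT2 (1.24 ± 0.19) rose, and so did PSPH (1.08 ± 0.27) and PHGDH (1.00 ± 0.25), the last and the first enzyme of serine synthesis, PHGDH not without the block (adjusted p = 0.0999). PSAT1, the middle enzyme of that pathway, had 12.19, 11.49 and 11.93 at 48 h, against 11.41, 11.49 and 11.73 at 24 h, with overlap, and did not pass. DDIT4, an inhibitor of mTORC1, had 12.99, 13.22 and 12.95 at 48 h, against 13.04, 12.88 and 11.34 at 24 h, where the 24 h array of replicate 3 alone stood low, and did not pass. Rises were also seen for the tRNA exporter XPOT (1.45 ± 0.20), PCK2 (1.98 ± 0.31), the mitochondrial enzyme that makes phosphoenolpyruvate, the growth factor VEGFA (1.71 ± 0.35), the hormone STC2 (2.94 ± 0.38), the stress sensor SESN2 (1.79 ± 0.29), the tRNA synthetase CARS1 (1.52 ± 0.17) and the lipoprotein receptor VLDLR (0.66 ± 0.16). VLDLR missed the threshold without the block (adjusted p = 0.0574). NUPR1, a chromatin-associated stress protein, had 6.37, 6.98 and 6.87 at 48 h, against 3.86, 3.79 and 3.85 at 24 h. CHAC1 had 4.77, 6.26 and 6.29 at 48 h, against 3.61, 3.61 and 3.60 at 24 h. ALDH1L2, NUPR1 and CHAC1 were the 3 members that, of these 2 times, reached 4 at 48 h only, the time at which they were higher. The filter took all 6 groups of the series, and whether they also met it in another group was not examined. ALDH1L2 had 7.20, 8.27 and 8.07 at 48 h, against 3.95, 3.98 and 3.82 at 24 h, and by the mean of its 3 probe sets its difference was 1.47. Of the 26 members that reached 4 at both times, 24 rose and the median difference was 1.64.

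Without the replicate block 23 of the 29 members rose, and without all arrays of replicate 1, 2 or 3 the counts were 23, 25 and 24, against 21 with the 6 arrays alone and the block. TGATGNAA stood in the windows of 8 of 23 members with a window (34.8%), namely ATF3, CHAC1, ASNS, SLC3A2, SLC7A1, SLC1A5, CEBPG and CARS1, against 2.77% of tested genes and 4.46% of all genes. Among genes with a window, 4.54% of those that rose, which include these 8, and 1.62% of those that fell held it. The list is one of known ATF4 targets, so its share does not test what moved them here.

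The 12 largest rises held 5 genes of these 2 lists (SLC7A11, ATF3, DDIT3, ALDH1L2 and SDF2L1), ALDH1L2 from a 24 h level below 4. Of the others, INHBE, which encodes a secreted subunit of activin E, had 11.27, 11.68 and 11.48 at 48 h, against 6.37, 7.13 and 5.46 at 24 h, and rose by 5.16 ± 0.46 (adjusted p = 1.63e-05). ERN1, which encodes the sensor IRE1, had 9.64, 10.67 and 10.96 at 48 h, against 5.50, 6.89 and 7.75 at 24 h, and rose by 3.71 ± 0.41. ERO1B, an ER oxidase that drives disulfide formation, had 7.35, 8.83 and 9.07 at 48 h, against 4.58, 3.51 and 4.98 at 24 h, and rose by 4.06 ± 0.34, whereas its paralog ERO1A had 9.94, 9.91 and 10.73 at 48 h, against 9.89, 10.11 and 10.61 at 24 h. DNAJC12 (3.57 ± 0.23), a co-chaperone of aromatic amino acid hydroxylases, LURAP1L (3.35 ± 0.46), BEX2 (3.48 ± 0.23) and the inositol trisphosphate kinase ITPKA (3.31 ± 0.62) completed the 12. The 48 h arrays of all of them lay above their 24 h arrays, against 14.9% of all genes. They were selected for large rises with 1 sign in all 3 pairs, so this separation is no further evidence.

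Genes of the cell cycle fell. Cyclins, replication factors and mitotic kinases are made in bursts in dividing cells: E2F factors drive the genes of DNA synthesis, and the DREAM and MuvB complexes act on mitotic genes through the cell cycle homology region (CHR). A bulk array cannot tell fewer dividing cells from less RNA of these genes per dividing cell. The promoters of PLK1, the kinase of mitotic entry, at chr16:23678639-23678938 on the plus strand, and of MKI67, the proliferation marker Ki-67, at chr10:128126374-128126673 on the minus strand, hold CHR letters (TTTGAA) 29 bases before the start and at 2 places beginning 47 bases before it. That of PCNA, the sliding clamp of DNA polymerase, at chr20:5126573-5126872 on the minus strand, holds the E2F letters TTTCCCGC on the opposite strand 59 bases before the start. They are RefSeq windows of GRCh38.p14 as above.
PLK1: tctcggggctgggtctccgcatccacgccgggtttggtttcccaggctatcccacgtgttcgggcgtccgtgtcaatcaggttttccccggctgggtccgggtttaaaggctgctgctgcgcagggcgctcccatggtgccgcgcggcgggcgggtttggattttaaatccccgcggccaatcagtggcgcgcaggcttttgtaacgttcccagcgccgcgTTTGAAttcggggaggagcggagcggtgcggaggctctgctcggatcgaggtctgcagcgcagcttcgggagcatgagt
MKI67: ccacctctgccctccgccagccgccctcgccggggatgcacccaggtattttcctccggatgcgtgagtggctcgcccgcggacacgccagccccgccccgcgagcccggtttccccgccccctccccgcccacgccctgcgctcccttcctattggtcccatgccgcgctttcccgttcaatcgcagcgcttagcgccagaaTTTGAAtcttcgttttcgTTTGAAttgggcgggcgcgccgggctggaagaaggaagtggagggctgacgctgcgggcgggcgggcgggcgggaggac
PCNA: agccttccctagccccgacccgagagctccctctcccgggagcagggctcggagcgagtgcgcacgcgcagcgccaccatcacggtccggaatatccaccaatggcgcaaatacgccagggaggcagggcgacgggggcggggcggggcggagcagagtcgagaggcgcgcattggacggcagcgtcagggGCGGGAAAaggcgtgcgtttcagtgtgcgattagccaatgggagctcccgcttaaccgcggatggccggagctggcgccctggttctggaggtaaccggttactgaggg
These 3 were again chosen after their values were seen.

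Of 30 mitotic genes tested, 29 fell and none rose, against 16.0% and 16.6% of all genes, with a median difference of -1.23. In all 30 the 48 h arrays lay below the 24 h arrays, against 16.1% of all genes. PLK1 had 6.40, 6.62 and 7.08 at 48 h, against 8.67, 8.40 and 9.13 at 24 h, and changed by -2.04 ± 0.29 (adjusted p = 0.000269). MKI67 had 9.76, 9.23 and 10.33 at 48 h, against 11.14, 11.07 and 11.72 at 24 h, a difference of -1.54 ± 0.24 (adjusted p = 0.000548). In both genes replicate 3 was the highest array of each time and the groups stayed apart. AURKA had 10.48, 9.57 and 10.33 at 48 h, against 11.60, 11.45 and 11.89 at 24 h (difference -1.52 ± 0.19), and the kinase AURKB, of the chromosomal passenger complex, differed by -1.38 ± 0.20. Its partners CDCA8 (-1.59 ± 0.22) and BIRC5 (-1.36 ± 0.22) fell as well. Cyclin B1 (CCNB1) had 11.08, 10.49 and 11.18 at 48 h, against 12.19, 12.11 and 12.24 at 24 h, and differed by -1.26 ± 0.17, while its kinase CDK1 differed by -0.97 ± 0.30 and lost its call without the block (adjusted p = 0.0736). The checkpoint kinases BUB1B (-1.31 ± 0.20), BUB1 (-1.24 ± 0.21) and TTK (-1.18 ± 0.22), the APC/C activator CDC20 (-1.09 ± 0.19) and the transcription factor FOXM1 (-1.24 ± 0.22) fell, CDC20 not without the block (adjusted p = 0.0789). NUSAP1 was the member that did not pass (-0.68 ± 0.28). Replicate 2 had the lowest 48 h level in most of the genes named here, though not in PLK1 or CDC20. Without the block 23 members fell, and without all arrays of replicate 1, 2 or 3 the counts were 20, 28 and 24. With the 6 arrays alone and the block 17 fell. TTTGAA stood in a window of 16 of the 24 member genes that had one (66.7%), against 13.6% of tested genes and 18.2% of all genes. Among genes with a window, 17.85% of those that fell, list members among them, and 12.81% of those that rose held it. The list was chosen by known function, so its share does not test what moved the genes.

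Of 37 genes of DNA replication tested among 38 listed, 33 fell and none rose, with a median of -1.12. Of all genes 16.0% fell and 16.6% rose. MCM10, which helps to fire origins, had 6.08, 4.25 and 5.62 at 48 h, against 7.43, 7.26 and 8.57 at 24 h, the largest fall of the list at -2.44 ± 0.35 (adjusted p = 0.000318). The GINS subunit GINS4 had 4.89, 3.77 and 4.74 at 48 h, against 7.01, 6.11 and 6.62 at 24 h, and differed by -2.11 ± 0.31. ORC1, the origin recognition ATPase, had 7.03, 6.34 and 6.97 at 48 h, against 8.60, 8.27 and 8.99 at 24 h, and differed by -1.84 ± 0.27. In these 3 genes the groups were separate and replicate 2 was lowest at 48 h. PCNA had 13.04, 12.20 and 12.52 at 48 h, against 13.76, 13.71 and 13.77 at 24 h, a difference of -1.16 ± 0.25 (adjusted p = 0.00377), and its 24 h arrays were closely spaced. The polymerase subunit POLD1 (-1.19 ± 0.18), the nuclease FEN1 (-1.19 ± 0.22), the helicase loader subunit ORC6 (-1.32 ± 0.22), cyclin E1 (CCNE1, -1.75 ± 0.28) and thymidine kinase TK1 (-1.61 ± 0.36) fell. The helicase subunits MCM2, MCM3, MCM4, MCM5, MCM6 and MCM7 fell, with differences from -0.68 ± 0.23 (MCM2) to -1.14 ± 0.18 (MCM7), and MCM2, MCM4 and MCM6 lost their calls without the block (adjusted p = 0.144, 0.0751 and 0.131). E2F1 (-0.64 ± 0.26), PRIM1 (0.21 ± 0.17), CDC6 (0.22 ± 0.22) and CDT1 (-0.31 ± 0.36) did not pass and overlapped between the times. CDC6 and CDT1 load the MCM helicase, and CDC6 had 8.42, 8.79 and 9.75 at 48 h, against 8.74, 8.25 and 9.31 at 24 h. Without the block 24 members fell. Without all arrays of replicate 3 the count was 18, and without replicate 1 or 2 it was 27 or 23, against 19 with the 6 arrays alone and the block. TTTCCCGC stood in a window of 9 of the 33 member genes that had one (27.3%), against 3.55% of tested genes and 1.98% of all genes. Among genes with a window, 6.04% of those that fell, list members among them, and 2.51% of those that rose held it. This list too was chosen by known function, so its share does not test what moved the genes.

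CDK inhibitors and pocket proteins did not move together: of 17 tested, 1 rose (5.88%) and 2 fell (11.8%), with a median of -0.05. BTG1, an antiproliferative cofactor, had 12.46, 12.27 and 12.71 at 48 h, against 11.62, 11.58 and 11.21 at 24 h, without overlap, and rose by 1.01 ± 0.19 (adjusted p = 0.00171). The D cyclins CCND3 (-0.57 ± 0.15) and CCND1 (-1.49 ± 0.52) fell, CCND1 not without the block (adjusted p = 0.174). CDKN1A, the CDK inhibitor p21, had 8.54, 9.43 and 9.59 at 48 h, against 8.84, 8.79 and 8.92 at 24 h, with overlap (difference 0.34 ± 0.21, adjusted p = 0.246), and CDKN1B, the inhibitor p27, differed by 0.19 ± 0.14. Of 18 p53 targets 5 rose (27.8%, against 16.6% of all genes) and none fell, with a median of -0.03. GDF15, a stress hormone, had 11.25, 12.57 and 13.66 at 48 h, against 10.27, 10.65 and 11.21 at 24 h, with replicate 3 highest at both times, and rose by 1.79 ± 0.25, a call lost without the block (adjusted p = 0.0597). The death receptor TNFRSF10B (0.90 ± 0.12) and SESN2, both also known as targets of CHOP or ATF4, rose, and so did CCNG1 (0.41 ± 0.13) and ZMAT3 (0.48 ± 0.17), the last 2 not without the block (adjusted p = 0.155 and 0.383). MDM2 had 8.46, 7.80 and 8.29 at 48 h, against 8.19, 8.22 and 8.04 at 24 h, and did not pass (0.03 ± 0.17).

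**Figure D2:**
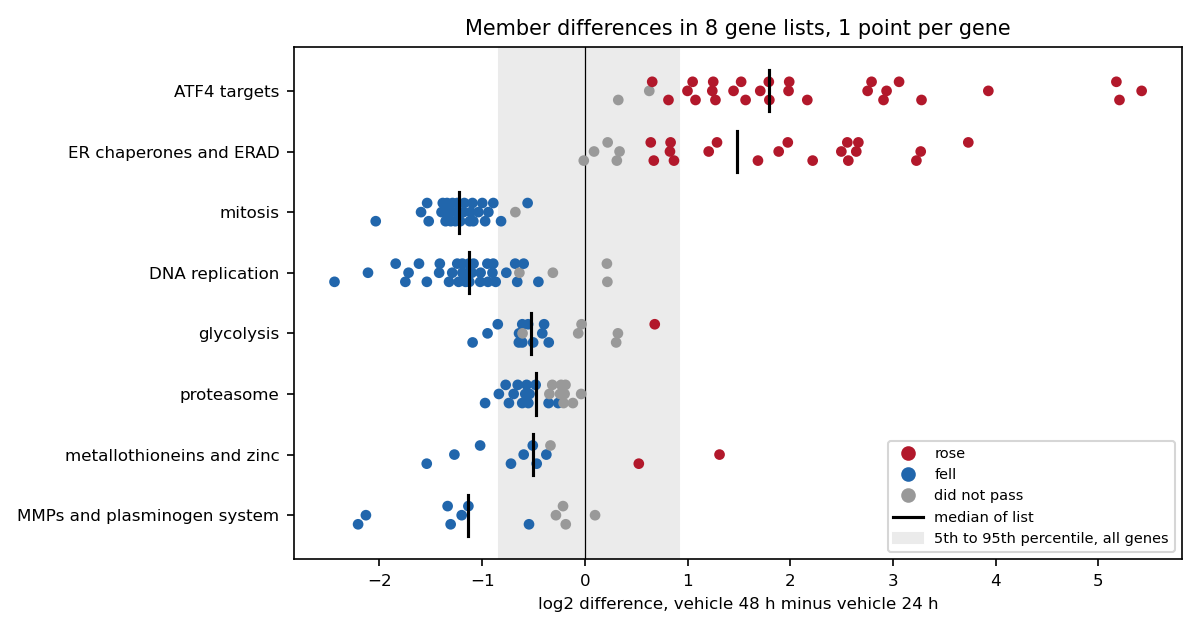
Log2 difference of each tested member of 8 gene lists, vehicle 48 h minus 24 h; points are genes, coloured by whether they rose, fell or did not pass, and the black bar is the list median. The ATF4 list (median 1.79) and the ER list (1.49) lie to the right of most genes tested, and the mitosis (-1.23) and DNA replication (-1.12) lists to the left of most.

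The largest fall of all genes was that of TXNIP, a thioredoxin-binding arrestin that limits glucose uptake and is driven by glucose-sensing factors. It had 5.41, 4.72 and 5.89 at 48 h, against 9.58, 8.14 and 7.88 at 24 h, and differed by -3.20 ± 0.41 (adjusted p = 0.000160). The related arrestin ARRDC3 differed by -0.77 ± 0.22, while ARRDC2 (-0.14 ± 0.21) and the glucose-sensing partner MLXIP (0.09 ± 0.19) did not pass. Next came GAL, for the neuropeptide galanin, with 3.89, 4.42 and 7.25 at 48 h, against 7.25, 6.99 and 9.96 at 24 h. Each array fell against its own number, but replicate 3 at 48 h was as high as replicate 1 at 24 h, and the difference of -2.88 ± 0.29 was lost without the block (adjusted p = 0.0844). SLN, for the calcium pump regulator sarcolipin, had 2.84, 2.83 and 3.42 at 48 h, against 5.77, 3.72 and 8.16 at 24 h. The 48 h arrays were below 4 and the 24 h arrays were far apart, and the difference of -2.85 ± 0.60 was lost without the block (adjusted p = 0.0921). LRRN4 (-2.60 ± 0.70), the helicase BLM (-2.18 ± 0.32) and the kinetochore gene SPC25 (-2.20 ± 0.40) fell with or without the block, as did MCM10, given above. SMTN (-2.25 ± 0.44), a smooth muscle and actin-binding protein, SCN3A (-2.18 ± 0.36), a sodium channel, and MMP1 (-2.21 ± 0.29), interstitial collagenase, did not pass without the block (adjusted p = 0.109, 0.0786 and 0.688). The tetraspanin-like membrane proteins TM4SF4 (-2.56 ± 0.54) and TM4SF1 (-2.21 ± 0.43) completed the 12.

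Glycolytic genes fell by smaller amounts. Of 18 tested, 12 fell and 1 rose, with a median of -0.53. PGAM1, phosphoglycerate mutase, had 13.02, 12.72 and 12.91 at 48 h, against 13.83, 13.66 and 14.00 at 24 h, and differed by -0.95 ± 0.10 (adjusted p = 5.77e-05). PKM, pyruvate kinase, had 11.74, 12.00 and 12.60 at 48 h, against 13.24, 12.90 and 13.48 at 24 h, and differed by -1.09 ± 0.14. LDHA (-0.61 ± 0.12), TPI1 (-0.64 ± 0.10), ALDOA (-0.50 ± 0.11), ENO1 (-0.41 ± 0.09) and GPI (-0.64 ± 0.15) fell with groups apart. GAPDH had 15.46, 15.52 and 15.51 at 48 h, against 15.61, 15.53 and 15.46 at 24 h, and did not pass (-0.03 ± 0.08). HK2, a hexokinase with all 48 h arrays above all 24 h arrays, was the member that rose (0.68 ± 0.15), while HK1 fell (-0.61 ± 0.18) and lost its call without the block (adjusted p = 0.200). Without the block 8 members fell. Without all arrays of replicate 1 or 2 the count was 6 or 7, and without replicate 3 it was 10, but with the 6 arrays alone and the block it was 2. Of 18 hypoxia targets, which share HK2, PFKFB4 and VEGFA with other lists, 6 rose (33.3%) and 2 fell (11.1%). Of all genes 16.6% rose and 16.0% fell. Differences were positive for 15 of the 18 and negative for 3. LOX, a collagen cross-linking oxidase (1.57 ± 0.25), ANKRD37 (1.02 ± 0.25), NDRG1 (1.18 ± 0.34) and MXI1 (0.67 ± 0.20) rose, and the oxygen sensor EGLN3 (-1.40 ± 0.43) and the glycolytic regulator PFKFB4 (-0.85 ± 0.24) fell. LOX, NDRG1 and EGLN3 were lost without the block (adjusted p = 0.283, 0.0551 and 0.232).

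Of 24 genes of the respiratory chain, 11 fell and none rose, with a median of -0.21. SDHA, the catalytic subunit of succinate dehydrogenase, had 9.83, 9.62 and 9.93 at 48 h, against 10.56, 10.45 and 10.48 at 24 h, and differed by -0.70 ± 0.10 (adjusted p = 0.000316). NDUFB3 (-0.68 ± 0.14) and NDUFA9 (-0.41 ± 0.09) of complex I fell, and so did COX7B (-0.60 ± 0.08) by the probe set used here, though its only other probe set had the opposite sign. ATP5F1A (-0.10 ± 0.09) and COX4I1 (-0.05 ± 0.08) did not pass. Without the block 5 members fell, and without all arrays of replicate 1 or 2 it was 5 or 3, against 8 without replicate 3. With the 6 arrays alone and the block limma called none of them, and 6 were lower at an unadjusted p under 0.05. In cholesterol synthesis, 9 of 19 fell and 2 rose, with a median of -0.35. HMGCS1, an early enzyme, had 10.53, 10.45 and 9.87 at 48 h, against 11.18, 11.38 and 11.84 at 24 h, and differed by -1.18 ± 0.25. EBP (-0.76 ± 0.11), IDI1 (-0.69 ± 0.13) and the sterol-regulated INSIG1 (-1.05 ± 0.30) fell, while the sterol carrier STARD4 (1.11 ± 0.16) and HSD17B7 (0.49 ± 0.10) rose, HSD17B7 not without the block (adjusted p = 0.0503). Squalene epoxidase SQLE (-0.26 ± 0.21) and MSMO1 (-0.07 ± 0.15) did not pass. Only 4 fell without the block, and 6, 3 and 4 without all arrays of replicate 1, 2 or 3. With the 6 arrays alone and the block limma called none, and 7 were lower and 2 higher at an unadjusted p under 0.05. In fatty acid synthesis 4 of 9 fell and none rose. FASN, fatty acid synthase, had 7.81, 6.58 and 7.66 at 48 h, against 8.69, 8.81 and 9.18 at 24 h, without overlap, and differed by -1.55 ± 0.27 (adjusted p = 0.00112). It was the member that fell without the block, and SREBF1 (-0.52 ± 0.17), ELOVL6 (-0.91 ± 0.30) and ACLY (-0.50 ± 0.18) were the ones lost (adjusted p = 0.105, 0.0780 and 0.0933). SCD had 14.02, 13.77 and 13.33 at 48 h, against 13.91, 14.03 and 13.23 at 24 h.

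Subunits of the proteasome fell: 14 of 23 tested, with none rising, a median of -0.48, and all 23 differences below 0. PSMD1, a scaffold of the regulatory particle, had 10.43, 10.52 and 10.48 at 48 h, against 11.37, 11.28 and 11.68 at 24 h, and differed by -0.97 ± 0.11 (adjusted p = 6.06e-05). PSMD14 (-0.54 ± 0.07), the deubiquitinase of the lid, and the core subunit PSMB2 (-0.69 ± 0.10) fell with groups apart. PSMD2 had 10.95, 10.86 and 11.45 at 48 h, against 11.72, 11.65 and 12.40 at 24 h, with replicate 3 highest at both times, and its difference of -0.84 ± 0.11 was lost without the block (adjusted p = 0.0939). Without the block 7 members fell, and without all arrays of replicate 1, 2 or 3 the counts were 10, 13 and 10, but 2 with the 6 arrays alone and the block. The list of cytosolic heat shock proteins, which also holds mitochondrial chaperonin genes, gave 3 falls (18.8%) and no rise among 16, with a median of -0.28. Of all genes 16.0% fell. HSPE1, the mitochondrial co-chaperonin, fell (-0.82 ± 0.25), as did STIP1 (-0.71 ± 0.18) and HSPA4 (-0.64 ± 0.10), these 2 not without the block (adjusted p = 0.0901 and 0.0598), and of HSPA4's 3 other probe sets 1 had the opposite sign. DNAJB1 had 9.41, 9.75 and 9.28 at 48 h, against 9.64, 9.58 and 10.20 at 24 h.

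Of 23 autophagy and lysosome genes, 8 rose and 1 fell, with a median of 0.14. SQSTM1, the cargo receptor p62, had 11.94, 12.44 and 13.13 at 48 h, against 11.29, 11.34 and 11.65 at 24 h, and rose by 1.08 ± 0.16 (adjusted p = 0.000389). MAP1LC3B, which coats autophagosomes, had 10.76, 11.68 and 12.07 at 48 h, against 10.20, 10.12 and 10.04 at 24 h, and rose by 1.38 ± 0.25. WIPI1 rose by 1.52 ± 0.27 and ATG14 by 0.45 ± 0.12, while the lysosomal enzyme GLA fell (-0.95 ± 0.17). Cathepsins CTSB (0.00 ± 0.13), CTSD (0.14 ± 0.34) and CTSL (-0.14 ± 0.11) did not pass. Without the block 4 members rose, as many as without all arrays of replicate 3, and 6 and 3 rose without replicate 1 and 2. With the 6 arrays alone and the block limma called 0 rises, and 5 members were higher at an unadjusted p under 0.05. Of 16 NRF2 targets 2 rose (12.5%) and 3 fell (18.8%), against 16.6% and 16.0% of all genes. Besides SLC7A11, which ATF4 also drives, GCLC, the catalytic subunit of glutathione synthesis, rose (0.82 ± 0.15), while PRDX1 (-0.59 ± 0.09), TALDO1 (-0.46 ± 0.11) and AKR1C1 (-1.17 ± 0.41) fell, and without the block SLC7A11 and PRDX1 were the ones called. HMOX1 had 7.53, 8.21 and 8.82 at 48 h, against 7.69, 7.75 and 7.75 at 24 h (0.46 ± 0.27), and NQO1 differed by -0.15 ± 0.21, neither passing. Of 22 genes of ribosome biogenesis 1 fell, POLR1A of RNA polymerase I (-0.61 ± 0.15), and its call was lost without the block (adjusted p = 0.0553). Arrays of total RNA scaled to each other would not show a change shared by most genes.

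For several lists replicate 3 lay so far from the others that groups overlapped while each pair moved one way. Of 11 genes of matrix metalloproteinases and the plasminogen system 7 fell and none rose, with a median of -1.13, but 1 fell without the block. MMP1 had 3.15, 3.09 and 11.22 at 48 h, against 6.20, 5.20 and 12.68 at 24 h. Its replicate 3 arrays stood far above the others, whose 48 h arrays were below 4, and the SD of the 48 h group was 4.68, larger than the difference of -2.21 ± 0.29. PLAT, tissue plasminogen activator, had 4.85, 4.01 and 7.62 at 48 h, against 6.38, 6.28 and 10.22 at 24 h, and differed by -2.13 ± 0.42 (adjusted p = 0.372 without the block). SERPINE2, an inhibitor of these proteases, had 9.77, 9.91 and 11.75 at 48 h, against 11.17, 11.17 and 12.68 at 24 h, with replicate 3 highest at both times, and differed by -1.20 ± 0.16 (adjusted p = 0.233 without the block). TIMP1 (-0.54 ± 0.12) was the member that fell in either fit. Without all arrays of replicate 1, 2 or 3, 5, 4 and 7 members fell, and with the 6 arrays alone and the block 3 did.

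Metallothioneins, small zinc-binding proteins, gave the same picture. Of 11 members of the metallothionein and zinc transporter list 8 fell and 2 rose, with a median of -0.51, and without the block 1 fell and 1 rose. MT1M had 8.08, 7.33 and 10.06 at 48 h, against 9.18, 8.97 and 11.11 at 24 h, and MT2A had 13.67, 13.60 and 14.72 at 48 h, against 14.35, 14.09 and 15.34 at 24 h. In both, every pair was lower at 48 h, the differences were -1.27 ± 0.21 and -0.60 ± 0.11, and replicate 3 at 48 h exceeded replicates 1 and 2 at 24 h (adjusted p = 0.383 and 0.450 without the block). Metallothionein genes are near-identical copies, so their probe sets may share signal. The zinc exporter SLC30A1 rose (0.53 ± 0.15) and the importer SLC39A10 fell (-1.54 ± 0.43) in either fit, and the importer SLC39A14 rose (1.31 ± 0.20) only with the block (adjusted p = 0.0598 without it). Without all arrays of replicate 1 or 2, 4 members fell, and without replicate 3, 8 did, while with the 6 arrays alone and the block 2 fell and 1 rose.

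**Figure D3:**
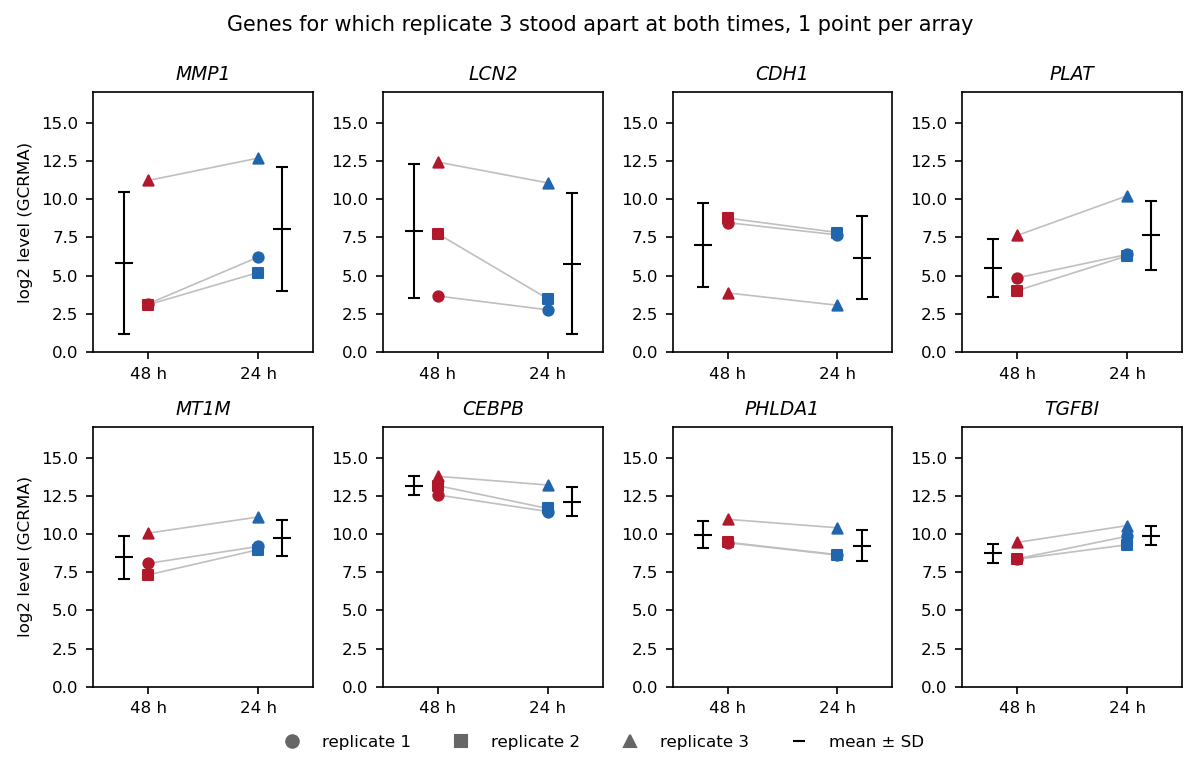
Log2 level of 8 genes in each vehicle array at 48 h (red) and 24 h (blue), with lines joining arrays of 1 replicate number and bars of mean ± SD. For some genes replicate 3 (triangles) lies far from the others, as for MMP1 at 11.22 against 3.15 and 3.09 at 48 h and CDH1 at 3.86 against 8.46 and 8.76. The 48 h arrays of CEBPB and LCN2 are instead spread over all 3 replicates. All 3 lines of a gene slope the same way.

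Of 26 epithelial junction genes 6 rose (23.1%) and 3 fell (11.5%), against 16.6% and 16.0% of all genes, and the other 17 did not pass. None of the 26 was called without the block. CDH1, E-cadherin, had 8.46, 8.76 and 3.86 at 48 h, against 7.66, 7.81 and 3.05 at 24 h, so that replicate 3 was below 4 at both times, and each pair rose, by 0.85 ± 0.17 over the 3 (adjusted p = 0.00230, 0.818 without the block). OCLN, occludin, had 10.09, 10.43 and 9.60 at 48 h, against 9.33, 9.21 and 8.41 at 24 h, and rose by 1.06 ± 0.16 (adjusted p = 0.0639 without the block). Claudin CLDN2 fell (-1.41 ± 0.36), CLDN3 rose (0.74 ± 0.18), and the mesenchymal genes VIM (-0.14 ± 0.10) and CDH2 (0.08 ± 0.11) did not pass. Of 7 proximal tubule identity genes 1 rose (14.3%) and 2 fell (28.6%), with a median of -0.09, and none was called without the block. CDH6, a cadherin of the tubule, fell (-1.13 ± 0.32), as did the transcription factor PAX8 (-0.41 ± 0.12), and the endocytic adaptor DAB2 rose (0.52 ± 0.16). Of 18 tubular injury genes 2 rose (11.1%) and 4 fell (22.2%), against 16.6% and 16.0% of all genes. Without the block TIMP1 was the one called. LCN2, the injury marker NGAL, had 3.66, 7.73 and 12.42 at 48 h, against 2.76, 3.48 and 11.06 at 24 h, from below 4 in replicate 1 to above 12 in replicate 3, and its difference of 2.17 ± 0.63 had an adjusted p of 0.0190 with the block and 0.713 without it. HAVCR1, the injury marker KIM-1, had 10.74, 10.11 and 10.31 at 48 h, against 11.08, 10.52 and 10.72 at 24 h, and did not pass (-0.38 ± 0.14, adjusted p = 0.0522). ANXA2 (-0.50 ± 0.12), CD44 (-0.68 ± 0.24) and CST3 (-0.35 ± 0.12) fell only with the block.

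No member of 14 chemokines and cytokines passed. The smallest p was that of IL18, with 11.12, 10.71 and 11.12 at 48 h, against 10.50, 10.75 and 10.28 at 24 h (adjusted p = 0.0788). CXCL8, a neutrophil chemokine, had 12.22, 13.38 and 14.48 at 48 h, against 11.99, 12.08 and 14.89 at 24 h, and IL6 had 4.13, 6.14 and 9.77 at 48 h, against 3.69, 4.09 and 11.75 at 24 h, with the replicate 3 arrays highest at both times and moving the other way from replicates 1 and 2. Without all arrays of replicate 3, 3 members of this list rose, and without replicate 2, 2 rose and 1 fell. Of 12 NF-kappaB regulators ICAM1, an adhesion receptor, rose (0.75 ± 0.18), but not without the block (adjusted p = 0.246), and without all arrays of replicate 3 the count was 3. Of 21 interferon response genes 6 rose (28.6%) and 2 fell (9.52%), or 3 and 1 without the block. Differences were positive for 15 and negative for 6. IRF1, a transcription factor, had 6.48, 7.45 and 9.25 at 48 h, against 5.44, 5.44 and 6.25 at 24 h, and rose by 2.02 ± 0.37, while OAS3, which makes the activator of RNase L, had 6.13, 6.28 and 6.47 at 48 h, against 7.32, 7.19 and 8.14 at 24 h, and differed by -1.26 ± 0.17. ISG20 (1.54 ± 0.33) and IRF9 (0.87 ± 0.22) rose, and IFI44L rose (1.12 ± 0.18) only with the block (adjusted p = 0.579 without it). Of 22 collagens, laminins and integrins 2 rose (9.09%) and 3 fell (13.6%), against 16.6% and 16.0% of all genes. COL6A1 (-0.95 ± 0.15) and ITGB5 (-0.73 ± 0.16) fell in either fit, whereas LAMB1 and LAMB3 rose and ITGA5 fell only with the block.

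Of 21 genes of ERK feedback and immediate early response 5 rose and 1 fell, against 16.6% and 16.0% of all genes. ERRFI1, an inhibitor of the EGF receptor, had 10.88, 11.39 and 10.77 at 48 h, against 10.13, 10.07 and 10.33 at 24 h, rose by 0.84 ± 0.18 and was the 1 member called without the block. PHLDA1 (0.72 ± 0.13), IER3 (0.64 ± 0.15), SPRY1 (1.09 ± 0.26) and the ligand EREG (1.99 ± 0.54) rose and FOSL1 (-1.76 ± 0.44) fell only with it, and MYC had 12.01, 11.85 and 12.00 at 48 h, against 11.65, 11.71 and 11.70 at 24 h, and did not pass (0.27 ± 0.14, adjusted p = 0.166). Of 18 FOXO targets 3 rose (16.7%) and 1 fell (5.56%), against 16.6% and 16.0% of all genes. FOXO3 rose (0.50 ± 0.11), IRS2 (0.47 ± 0.12) and GABARAPL1 (0.75 ± 0.26) rose with the block only, and TXNIP fell. Of 11 glucocorticoid receptor targets 2 rose and 2 fell (18.2% each way), near the shares of all genes. TSC22D3 (GILZ) had 11.09, 10.86 and 10.94 at 48 h, against 10.00, 10.20 and 9.41 at 24 h (1.09 ± 0.22), while FKBP5 did not pass (-0.23 ± 0.21). Of 14 clock genes 4 rose (28.6%) and none fell, against 16.6% and 16.0% of all genes. The median of their paired differences was 0.55, -0.21 and 0.96 in replicates 1, 2 and 3, so replicate 2 moved the other way. Without the block 3 rose, and with the 6 arrays alone and the block 1 did. PER2 had 6.93, 7.22 and 6.98 at 48 h, against 4.05, 5.57 and 5.08 at 24 h, and rose by 2.15 ± 0.40 (adjusted p = 0.00163), BMAL1 rose by 0.88 ± 0.18, NFIL3 by 1.15 ± 0.27 and CRY1, with the block only, by 0.49 ± 0.17, whereas DBP (0.41 ± 0.53) and NR1D2 (0.64 ± 0.28) did not pass.

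In TGF-beta signalling 3 of 17 rose (17.6%) and 2 fell (11.8%), against 16.6% and 16.0% of all genes. None of the 17 was called without the block. TGFBI, an extracellular matrix protein, had 8.38, 8.35 and 9.45 at 48 h, against 9.85, 9.30 and 10.55 at 24 h, with each pair falling and replicate 3 highest, and differed by -1.17 ± 0.12 (adjusted p = 3.24e-05, 0.0635 without the block). BAMBI, a pseudoreceptor that dampens the pathway, rose (1.04 ± 0.21, adjusted p = 0.0575 without the block). Of 19 YAP targets LATS2 was the 1 that passed (0.35 ± 0.11), with 1 of its 2 other probe sets of the opposite sign and an adjusted p of 0.516 without the block. Of 18 genes of the BCL2 family and caspases 2 rose and 2 fell (11.1% each way), below the shares of all genes. TNFRSF10B, a receptor of TRAIL, had 11.04, 11.56 and 11.27 at 48 h, against 10.30, 10.45 and 10.43 at 24 h, and rose in either fit, as did BCL2L2 (0.71 ± 0.14), an inhibitor of apoptosis. BID (-0.59 ± 0.16) and BAK1 (-0.51 ± 0.15), which promote it, fell with the block only (adjusted p = 0.533 and 0.0855 without it), and MCL1 did not pass (0.18 ± 0.10). Without all arrays of replicate 1, 2 or 3, rises numbered 2, 4 and 7 in the ERK list, 1, 6 and 0 in the FOXO list, 4, 2 and 3 in the interferon list, 3, 4 and 5 in the hypoxia list, 6, 3 and 3 in the junction list, 5, 4 and 3 in the p53 list and 2, 5 and 1 among the CDK inhibitors and pocket proteins. With the 6 arrays alone and the block they numbered 1, 0, 1, 1, 2, 3 and 0 in these 7 lists, where 5, 2, 5, 6, 6, 5 and 1 members were higher at an unadjusted p under 0.05.

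**Figure D4:**
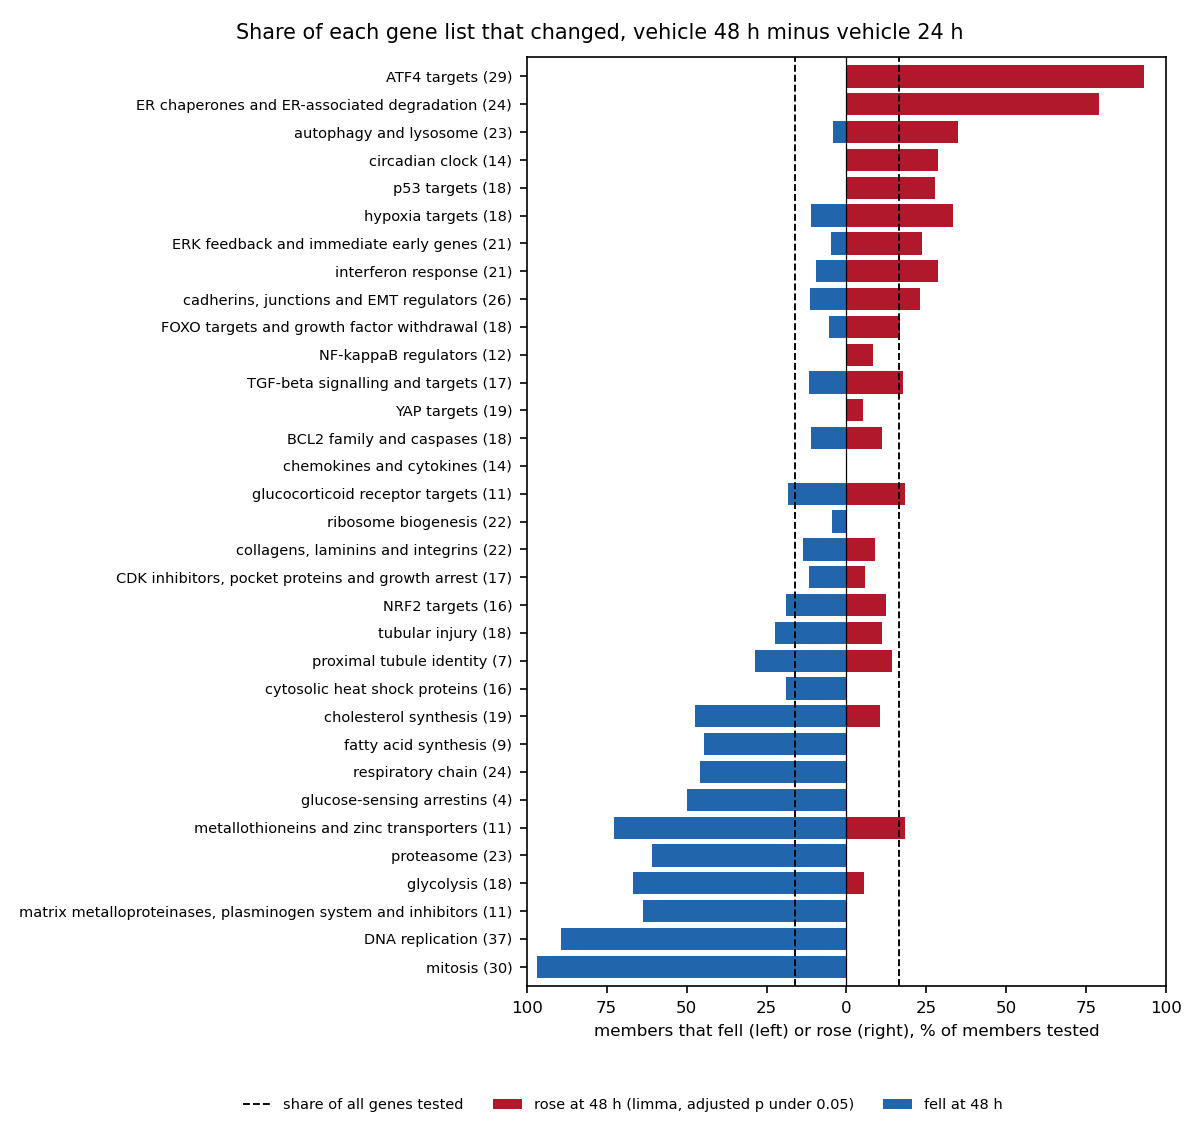
Share of tested members of each of 33 gene lists that rose (right, red) or fell (left, blue) between vehicle 24 h and 48 h; numbers in brackets are members tested and dashed lines are the shares over all genes tested, 16.6% and 16.0%. The ATF4 and ER lists at the top and the mitosis and DNA replication lists at the bottom reach furthest from the dashed lines, with 27 of 29, 19 of 24, 29 of 30 and 33 of 37 members.

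From 12 to 24 h of vehicle, a shorter interval, no gene passed in the same limma fit (0% of 10717, with 427 at an unadjusted p under 0.05). Both changes use the 24 h arrays, so their values are given side by side. Against the 12 h array of the same replicate, the median of the ATF4 list was 0.01, 0.09 and 0.01 at 24 h and 1.51, 1.89 and 1.93 at 48 h. The ER list stood at -0.04, -0.12 and -0.06 at 24 h and at 0.70, 1.80 and 1.70 at 48 h. Mitotic genes stood at -0.01, 0.07 and 0.01 at 24 h and at -0.91, -1.58 and -1.05 at 48 h, and genes of DNA replication at -0.09, -0.29 and 0.16 at 24 h and at -0.94, -1.64 and -0.87 at 48 h. The median over all genes stayed between -0.04 and 0.02.

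The test of the difference between the 2 changes, 24 to 48 h minus 12 to 24 h, called 560 genes (5.23%), 348 of them positive (3.25%) and 212 negative (1.98%). It was positive for 14 of the 29 ATF4 targets and 12 of the 24 ER genes, and negative for 8 of 30 mitotic and 3 of 37 replication genes. HSPA5 changed by 2.64 ± 0.19 from 24 to 48 h and by -0.30 ± 0.19 from 12 to 24 h, and DDIT3 by 5.17 ± 0.48 and 0.44 ± 0.48. PLK1 changed by -2.04 ± 0.29 and 0.03 ± 0.29 over the same intervals. TXNIP changed by -3.20 ± 0.41 and -1.36 ± 0.41, and the difference between its changes did not pass (-1.83 ± 0.71, adjusted p = 0.150). The count was 29 without the replicate block and 44 with the 9 vehicle arrays alone. Without the 24 h array of replicate 1, 2 or 3 it was 82, 100 and 98, and without all arrays of a replicate number 27, 86 and 23.

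**Figure D5:**
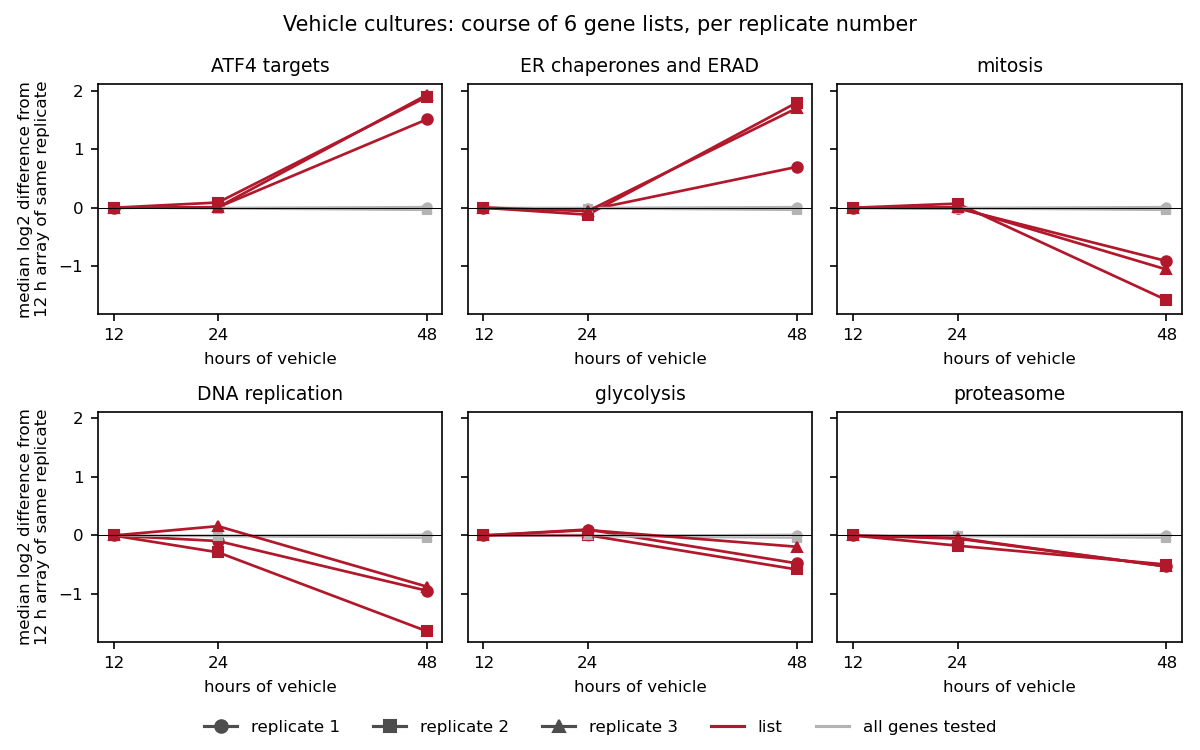
Median log2 difference of 6 gene lists (red) and of all genes tested (grey) from the 12 h array of the same replicate, against hours of vehicle, 1 line per replicate number. Lists stay within 0.29 of 0 at 24 h and separate from the grey lines at 48 h, upward for ATF4 targets (1.51 to 1.93) and ER genes (0.70 to 1.80) and downward for the others.

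The cultures given CsA changed over the same hours as well. Each change starts from the 24 h level of its own cultures, and these starting levels were not compared by list. Between 24 and 48 h of CsA 2279 genes rose (21.3%) and 2198 fell (20.5%). ATF4 targets rose for 21 of 29 with a median of 1.26 in CsA cultures, against 27 of 29 and 1.79 in vehicle cultures. ER genes rose for 22 of 24 with a median of 1.58, against 19 of 24 and 1.49. DNA replication genes fell for 35 of 37, with 1 rise and a median of -1.94, against 33 of 37 and -1.12, and mitotic genes for 30 of 30 with -1.81, against 29 of 30 and -1.23. CDC6 changed by 0.97 ± 0.22 with CsA and by 0.22 ± 0.22 with vehicle. HSPA5 changed by 2.15 ± 0.19 with CsA and by 2.64 ± 0.19 with vehicle, and TXNIP by -1.09 ± 0.41 and -3.20 ± 0.41.

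The test of the difference of these changes called 5 genes (0.0467%), 4 with a more positive change under CsA (0.0373%) and 1 with a more negative one (0.00933%), while 1438 had an unadjusted p under 0.05, so most differences between the changes of single genes were not resolved by this test. No member of the 4 lists was among the 5. SLC7A11, for example, rose by 2.26 ± 0.41 with CsA and by 5.42 ± 0.41 with vehicle (adjusted p of the difference = 0.118), with 24 h means of 8.28 in CsA and 4.61 in vehicle cultures. The 5 were NETO1, IL20RB, ALG14, A1BG and the antisense transcript EML2-AS1. IL20RB, a cytokine receptor subunit, had 5.02, 4.90 and 5.43 at 48 h of vehicle, against 3.46, 3.46 and 3.48 at 24 h, and rose by 3.38 ± 0.15 with CsA and by 1.65 ± 0.15 with vehicle (difference 1.73 ± 0.21, adjusted p = 0.00859). Its 24 h means were below the level minimum of 4 in both cultures, at 3.58 with CsA and 3.47 with vehicle, so these sizes are uncertain, and with values below 4 raised to 4 the vehicle difference was 1.12. NETO1 changed by -2.46 ± 0.18 with CsA and by -0.75 ± 0.18 with vehicle (adjusted p = 0.0352). Without the replicate block 4 genes were called. Without the 48 h vehicle array of replicate 2 there were 15, without the 24 h array of replicate 1, 2 or 3 there were 1, 3 and 2, and without all arrays of any 1 replicate number there were 0.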

How the data were processed

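RNA was labelled as biotinylated cRNA and hybridized to Affymetrix arrays, per the labels' protocols. The authors deposited GCRMA values, per the submitters' processing notes. Their log base is not stated, and the deposited values were read as log2 from their range. Scan batches are not given in the sources used here. Of 54675 probe sets, 41091 had 1 gene symbol, 1801 several, 11721 none, and 62 were controls. Probe sets with 1 symbol were used, the brightest per gene over all arrays, and genes with a highest group mean of at least 4 were kept (10717).

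Samples were grouped by their titles. limma 3.58.1 in R 4.3.3 fitted all 18 arrays with 1 term per group and the replicate number as a block, followed by eBayes and Benjamini-Hochberg adjustment (threshold 0.05), and was tested on simulated data. Deviations of the arrays of 48 and 24 h from their group means correlated between same-numbered arrays at 0.38, 0.32 and 0.69. Each was above 0.1, so the numbers were taken to pair the samples. For replicates 1 and 2 this criterion could not decide, because the remaining replicate stood apart at both times and gave both similar deviations. Their crossed pairs correlated no less than their numbered ones. Replicate 1 of 48 h gave 0.51 with replicate 2 of 24 h, against 0.38 with its own number. Replicate 2 of 48 h gave 0.38 with replicate 1 of 24 h, against 0.32 with its own number. For replicates 1 and 2 the pairing therefore rests on the labels alone. The number of arrays limits the precision. The only exact permutation tests were those of RNA quality.

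The comparison and the 33 gene lists (716 genes listed, 579 tested) were chosen with earlier results of these data known. Genes named by rule were the 12 largest rises and falls with 1 sign in all 3 pairs, up to 4 members of each list that passed with the smallest p (or the member with the smallest p where none passed), the 4 largest each way in both difference tests and 9 preset genes. Further members and families were named after their values were seen. Alternatives changed the block, the arrays fitted, the filter, the normalization, the floor, the probe set rule and the variance prior, and left out arrays or replicate numbers in turn. Counts of list members under those settings, and leaving out replicates for the RNA quality measures, were added after seeing the data.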

Additional observations from a re-analysis of the deposited data

Results flagged for a closer look

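The change from 24 to 48 h of vehicle minus the change from 12 to 24 h passed the limma test of this difference for the following genes, which are the 4 largest in each direction. It was 5.88 ± 0.71 for SLC7A11 (adjusted p = 0.00186), 5.26 ± 1.12 for ATF3, 4.81 ± 0.79 for INHBE and 4.74 ± 0.83 for DDIT3. It was -2.55 ± 0.50 for GAL (adjusted p = 0.0159), -2.32 ± 0.45 for the condensin gene NCAPH, -2.31 ± 0.62 for SCN3A and -2.20 ± 0.55 for BLM. Both changes rest on the 24 h arrays, so an array that stood low or high at 24 h enters them with opposite signs. Without the 24 h array of replicate 1, 2 or 3 the test called 82, 100 and 98 genes, against 560 with all arrays.

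The change from 24 to 48 h with CsA minus that with vehicle passed for 5 genes. It was 1.73 ± 0.21 for IL20RB, 1.46 ± 0.20 for ALG14, 1.21 ± 0.15 for A1BG, 1.16 ± 0.12 for EML2-AS1 and -1.72 ± 0.26 for NETO1, with adjusted p-values of 0.00859, 0.0187, 0.00860, 0.00238 and 0.0352. ALG14, which takes part in building the glycan of N-linked glycoproteins, changed by 0.99 ± 0.14 with CsA and by -0.46 ± 0.14 with vehicle, and A1BG by 1.18 ± 0.11 and -0.02 ± 0.11. EML2-AS1 changed by 1.20 ± 0.08 with CsA and by 0.04 ± 0.08 with vehicle, at vehicle means of 2.83 at 48 h and 2.79 at 24 h, below the level minimum, which it reached in CsA cultures only. It is an antisense transcript, and the specificity of its probe set was not tested.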

How the results depend on the processing

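Of the choices tried, the replicate block and the arrays fitted moved the counts most. Without the block 1552 genes were called (785 rose, 767 fell), the 6 arrays alone with the block gave 613 (334 and 279), and the 6 arrays without it 91 (65 and 26). The difference from the 12 to 24 h change gave 29 calls without the block and 44 with the 9 vehicle arrays, and the CsA difference gave 3 without the level filter. With 1 array or replicate number left out, genes called ranged from 2054 to 3290, rises from 1016 to 1847 and falls from 980 to 1589, calls for the 12 to 24 h difference from 23 to 736, and those for the CsA difference from 0 to 15. The other normalizations, floor, trend, filters and probe set rules kept the 3 counts of genes called, risen and fallen from 24 to 48 h within 1.5 times, and depth is limited by 3 arrays a group and by levels near 4. Of the 264 genes named, 217 were called, and 71 lost the call without the block. With the 6 arrays alone 110 lost it with the block and 186 without. Only 30 of the 217 kept the call in all 21 alternatives. Among called genes, direction changed over the 21 alternatives for COX7B and HSPA4 alone. Each changed only where the most variable probe set replaced the brightest, and why the probe sets differ was not tested. Of the 217 called genes, 51 had a difference that some alternative moved by more than 1.5 times, 26 of them by the probe set rule and 26 with arrays left out. With the mean of probe sets it became 1.47 for ALDH1L2, -0.37 for BID, -0.20 for COX7B, 0.33 for DAB2, 1.56 for DERL2, 0.30 for ESCO1, -1.19 for ESCO2, 2.10 for HERPUD1, -0.38 for HSPA4, 3.99 for HSPA5, -0.44 for ITGB5, 0.17 for LATS2, -0.66 for PKM, 2.14 for SARS1, 0.90 for SEC24D and 0.88 for XBP1. With the most variable probe set it became -0.81 for ACLY, -0.76 for ALDOA, -1.17 for CD44, 0.38 for CLDN3, 0.31 for DAB2, 2.25 for DERL2, -0.77 for ENO1, 0.16 for ESCO1, 5.33 for HSPA5, -0.30 for ITGB5, 0.22 for LATS2, -1.84 for MCM4, 1.48 for PDIA3, 2.88 for SARS1, 2.27 for SEC63, 1.01 for SSR1 and 0.78 for ZMAT3. With values below 4 raised to 4 it became -0.76 for EGLN3 and -0.71 for FOSL1. Without replicate 1 it became -0.76 for ACLY, -0.32 for ANXA2, -2.23 for CCND1, -0.15 for CST3, -1.46 for ELOVL6, -0.43 for ITGA5 and 0.92 for LAMB3. Without replicate 2 it became -0.69 for AKR1C1, 0.42 for CANX, -0.63 for CDK1, -0.79 for EGLN3, -0.48 for ELOVL6, 0.47 for ICAM1, 1.01 for ISG20, 0.34 for LAMB3 and 1.13 for LCN2. Without replicate 3 it became -1.92 for AKR1C1, 0.66 for ANKRD37, -0.49 for ARRDC3, -0.80 for CCND1, -0.37 for CCND3, 0.27 for CCNG1, -1.05 for FOSL1, 0.34 for GABARAPL1, -0.25 for HARS1, -0.48 for HSPE1, 0.59 for NDRG1 and -0.95 for SLC39A10. Without 1 array it became -0.20 for CST3 (48 h, replicate 1), -0.77 for AKR1C1, -0.89 for EGLN3, -0.53 for ELOVL6, 0.50 for ICAM1, 1.28 for LCN2 and -0.33 for SREBF1 (48 h, replicate 2), -1.78 for AKR1C1 and 0.79 for NDRG1 (48 h, replicate 3), 0.31 for CRY1 (24 h, replicate 1) and 0.48 for GABARAPL1 (24 h, replicate 3). With quantile normalization the difference became 0.0059 for COX4I1, 0.016 for CTSB, 0.0035 for ERO1A, 0.0080 for MSMO1 and 0.075 for SCD. With values below 4 raised to 4 the difference became 0 for EML2-AS1. With the mean of probe sets the difference became 0.012 for COX4I1 and 0.24 for ERO1A. With the most variable probe set the difference became 0.17 for COX4I1, 0.20 for COX7B, 0.39 for ERO1A, 0.26 for HSPA4 and -0.018 for MCL1. With 1 array or replicate number left out the difference crossed 0 for genes that did not pass, with ranges of -0.38 to 0.18 for ARRDC2, -0.11 to 0.038 for COX4I1, -0.17 to 0.10 for CTSB, -0.078 to 0.028 for GAPDH, -0.17 to 0.28 for MDM2, -0.41 to 0.15 for NQO1, -0.061 to 0.0023 for A1BG, -0.048 to 0.77 for CALR, -0.079 to 0.087 for ERO1A, -0.77 to 1.24 for IL6, -0.33 to 0.084 for MSMO1, -0.087 to 0.11 for SCD, -0.42 to 0.0034 for SMC3, -0.0016 to 0.076 for BEX3, -0.35 to 0.50 for CTSD, -0.40 to 0.93 for DBP, -0.041 to 0.25 for DERL1, -0.12 to 0.39 for MLXIP, -0.73 to 0.018 for CDT1, -0.093 to 0.76 for CXCL8, -0.041 to 0.50 for P4HB and -0.55 to 0.027 for SQLE. The change in the ACTB 3-prime to 5-prime difference ran from -0.11 to 0.26 with 1 replicate number left out. The change in the GAPDH 3-prime to 5-prime difference ran from -0.070 to 0.071 with 1 replicate number left out.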

Other observations

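Gene families beyond the lists were described after the values had been seen, so they carry no test as families. Of the enzymes that charge tRNAs, 17 were cytosolic and 15 mitochondrial. Of the 17 cytosolic aminoacyl-tRNA synthetases 11 rose and 2 fell, with a median of 0.59, and of the 15 mitochondrial ones none rose and 3 fell, with a median of -0.11. WARS1 had 10.85, 12.27 and 11.93 at 48 h, against 9.49, 9.32 and 9.43 at 24 h, and rose by 2.27 ± 0.29, and AARS1 (1.95 ± 0.31), GARS1 (1.46 ± 0.21), YARS1 (1.43 ± 0.18) and SARS1 (1.41 ± 0.23) rose, while HARS1 (-0.48 ± 0.15) and RARS1 (-0.22 ± 0.08) fell with the replicate block only. Of 17 genes of the COPII coat, which carries cargo from the ER, 9 rose and none fell. The cargo adaptors SEC24D (1.43 ± 0.16) and SEC24A (1.13 ± 0.11) rose, and SEC24B (0.25 ± 0.14) and SEC24C (0.27 ± 0.16) did not pass. Of 18 genes of the oligosaccharyltransferase and the translocon, which bring proteins into the ER, 8 rose and 1 fell, among them SEC63 (0.99 ± 0.10) and OSTC (0.97 ± 0.15).

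Of 19 condensin and cohesin genes 12 fell and 1 rose. The condensin subunits NCAPH (-2.17 ± 0.26) and NCAPD3 (-1.34 ± 0.21) and the cohesin acetyltransferase ESCO2 (-2.01 ± 0.33) fell, while its paralog ESCO1 rose (0.50 ± 0.10) and the cohesin core subunits SMC3 (-0.25 ± 0.18) and RAD21 (-0.26 ± 0.14) did not pass. Of 19 genes of homologous recombination and the Fanconi pathway 11 fell and none rose, or 5 without the block. TM4SF1, TM4SF4 and TM4SF18 all fell. TM4SF18 had 10.69, 10.18 and 10.15 at 48 h, against 12.36, 11.97 and 12.90 at 24 h, and differed by -2.07 ± 0.32. In RefSeq on GRCh38.p14 these 3 genes neighbour each other on chromosome 3, with 0 other protein-coding genes between them. Of 4 BEX genes tested BEX2, BEX5 (1.96 ± 0.39) and BEX4 (1.53 ± 0.23) rose, and BEX3 did not pass (0.04 ± 0.09).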
